A study of Mus musculus with 12 samples.

Results

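Oxidative phosphorylation was described here through the genes that encode its 5 complexes, in 12 RNA-seq libraries of mouse small intestinal organoids. Members were taken by symbol: the subunit families Nduf, Sdh, Uqcr, Cox4 to Cox8 and Atp5 for the nuclear genome, and the mt-Nd, mt-Co, mt-Cytb and mt-Atp genes for the mitochondrial genome. This gave 111 of the 55335 entries in the count tables, 98 nuclear and 13 mitochondrial. Another 9 entries with a pseudogene suffix were left out, and 4 of the nuclear members carry plain gene symbols but are annotated as processed pseudogenes. Of the 98 nuclear members, 39 belong to complex I, 8 are complex I assembly factors, 4 belong to complex II, 8 to complex III, 21 to complex IV and 18 to complex V. The mitochondrial members divide into 7 of complex I, 1 of complex III, 3 of complex IV and 2 of complex V.

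All organoids came from 1 female mouse of the Lgr5GFPDTR/+ line, in which a GFP and diphtheria toxin receptor cassette sits at Lgr5, so every group shares that allele and that donor. Organoids are cultures of epithelium alone. The ENR control group was kept to day 6 in ENR, a maintenance medium named for its EGF, Noggin and R-spondin. The RANKL group received 3 days of 3 µM CHIR99021 and 1.5 mM valproic acid, which inhibit GSK3 and histone deacetylases. It then had 1 day of plain ENR and 6 days of RANKL at 100 ng/mL, a cytokine needed to form M cells. RANKL II is a second set under the same labelled treatment, and the RANKL+CSRM617 group added 40 µM CSRM617, a small-molecule inhibitor of ONECUT2, a transcription factor. The control libraries carry the prefix CVENR in their labels, which do not spell it out or say whether the controls also had the CHIR99021 and valproic acid step. Each group had 3 libraries, which the labels number as experiments without saying that they came from separate cultures, so p-values measure the spread between these libraries, which may be technical.

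Oxidative phosphorylation passes electrons from NADH and succinate through complexes I to IV to oxygen, pumps protons across the inner mitochondrial membrane, and lets them return through complex V, the ATP synthase. Complex II is built from nuclear genes alone, whereas complexes I, III, IV and V mix nuclear subunits with a few that mitochondrial DNA encodes. Mitochondrial DNA is transcribed as long precursors that are cut into single mRNAs, so its genes share promoters. In the intestinal epithelium, stem cells and differentiated enterocytes are both known to rely on mitochondrial respiration.

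The libraries held 5795541 to 14041947 counts. Gm42418 and Gm26917, loci that collect ribosomal RNA reads, took 21.87% to 35.52% of ENR control counts and 9.712% to 10.7% of RANKL counts. Their share was 6.438% to 6.714% for RANKL II and 15.27% to 15.77% with CSRM617. The 3 RANKL II libraries stood close to sampling noise, with a chi-square of 1.1 to 1.43 per degree of freedom between pairs over genes with at least 20 counts in the pair. RANKL+CSRM617 replicates 1 and 2 gave 1.18, and their pairs with replicate 3 gave 5.12 and 4.41. Pairs of ENR control libraries gave 5.97 to 36.7. Every pair differed by more than counting noise, which repeat preparations of 1 culture could also do. The libraries were counted separately because the labels number them separately, and the spread behind the CSRM617 p-values may be technical in both of its groups. Markers of M cells, immune cells and stromal cells were checked as well. Sox8 and Gp2 were at 0 counts in ENR control and present in every other group, and Adgre1, Col1a2, Col3a1 and Cdh5 were at 0 counts in all 4 groups.

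The gene counts cover the mitochondrial genome unevenly. mt-Co1, mt-Cytb, mt-Nd1, mt-Nd2, mt-Nd4, mt-Nd5 and mt-Nd6 were counted in every library at 390.7 CPM or more (CPM being the count scaled to library size by TMM, within a table). The other 6 mRNAs had almost no counts. Over the 3 libraries of each group (controls, RANKL, RANKL II, then CSRM617), mt-Co2 summed to 0, 3, 10 and 14 counts, mt-Co3 to 1, 2, 4 and 3 counts, and mt-Atp6 to 0, 1, 3 and 4 counts. mt-Atp8 summed to 1, 1, 2 and 4 counts, mt-Nd3 to 23, 4, 15 and 9 counts, and mt-Nd4l to 1, 0, 0 and 3 counts. A count of 0 allows up to 3 counts, which covers counting error only.

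For 5 of these 6, nearly all 42-base stretches of the transcript, the read length, also occur in transcripts of other genes in the GENCODE M21 annotation. The share was 100.0% for mt-Co2, 99.87% for mt-Co3, 99.53% for mt-Atp6, 98.83% for mt-Nd4l and 98.05% for mt-Nd3. It was 1.23% for mt-Atp8, whose annotated span (chrM:7766-7969) overlaps that of mt-Atp6 (chrM:7927-8607). The share counts annotated transcripts only, so it misses any copy without an annotated transcript. The mt-Atp8 span lies between those of mt-Co2 and mt-Co3, whose copies, given below, are on the same strand of chr1. Whether mt-Atp8 has a copy there was not tested. Among the 7 counted mRNAs the share was 62.45% for mt-Nd4, 55.72% for mt-Co1, 10.99% for mt-Nd5, 9.73% for mt-Nd2, 0.82% for mt-Cytb and 0.0% for mt-Nd1 and mt-Nd6, so the levels of mt-Nd4 and mt-Co1 are the most uncertain. The first 60 bases of the mt-Co2 coding sequence (chrM:7013-7696, plus strand, GRCm38) are shown because they are the same letter for letter in Gm28661, a nuclear copy on the minus strand (chr1:24614885-24615565). The 2 sequences matched at 681 of 681 aligned bases. mt-Co3 (chrM:8607-9390, plus strand) matched Gm28437 (chr1:24613189-24613971, minus strand) at 783 of 783 bases, and its first 60 bases stand beside it. No capitals are used because no base differs.
mt-Co2 and Gm28661, bases 1 to 60: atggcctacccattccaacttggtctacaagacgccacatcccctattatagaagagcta
mt-Co3 and Gm28437, bases 1 to 60: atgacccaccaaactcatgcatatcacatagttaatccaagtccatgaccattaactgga
The part that such copies play in the low counts was not tested. Complex V of the mitochondrial genome therefore has no measured member, and complex IV has mt-Co1 alone.

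The 13 mitochondrial mRNAs took 6.131%, 5.419% and 7.946% of all counts in the ENR control libraries and 2.509%, 2.877% and 2.819% in the RANKL libraries, with no overlap. In RANKL II they took 6.023%, 6.013% and 6.036%, and in RANKL+CSRM617 8.593%, 9.003% and 11.02%, again with no overlap and in the other direction. The 98 nuclear members together took far less: 0.3669%, 0.4963% and 0.3132% in ENR control, and 0.5488%, 0.5317% and 0.4879% in RANKL. Those groups overlapped. In RANKL II the nuclear members took 0.6392%, 0.6439% and 0.644%, all above the 0.4664%, 0.4624% and 0.447% of RANKL+CSRM617. The mitochondrial counts exceeded the nuclear ones by 16.7, 10.9 and 25.4 times in ENR control, 4.57, 5.41 and 5.78 times in RANKL, 9.42, 9.34 and 9.37 times in RANKL II and 18.4, 19.5 and 24.7 times in RANKL+CSRM617. The ratio does not depend on how libraries are scaled. In both tables the group with the higher ratio was also the group with more counts at the ribosomal RNA loci, and the part of that share in the result was not tested. Taken out of the total, those loci left mitochondrial shares of 6.936% to 12.32% for ENR control against 2.809% to 3.186% for RANKL. For RANKL II it was 6.446% to 6.452%, against 10.2% to 13.0% with CSRM617, so neither pair of groups overlapped.

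**Figure D1:**
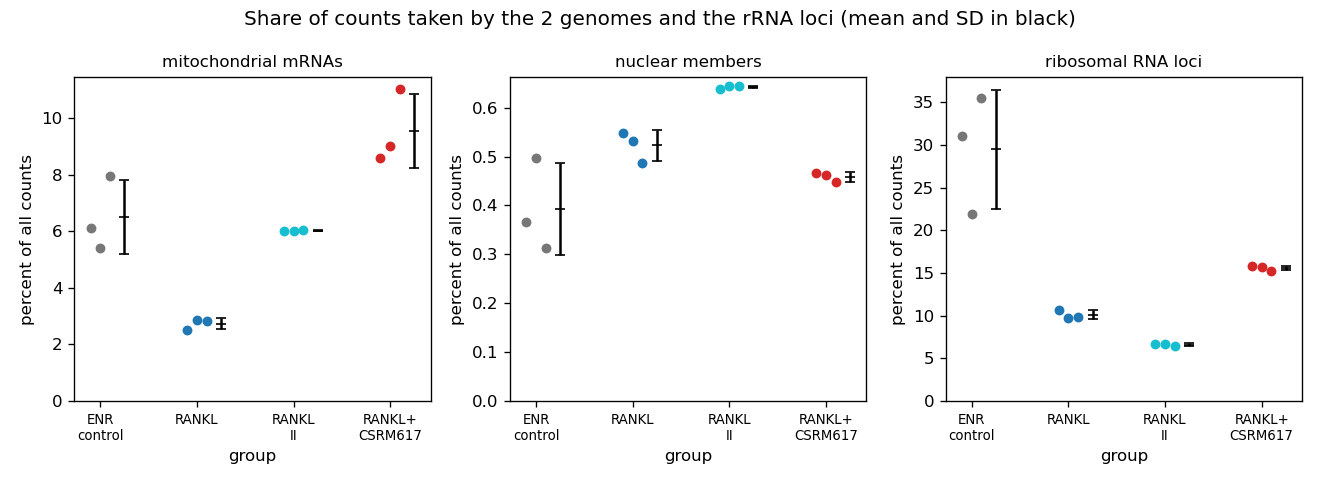
Percent of all counts (y axes, each from 0) taken by the mitochondrial mRNAs, the nuclear members and the ribosomal RNA loci in each of the 12 libraries, by group (x axes); points are libraries, and black marks are the mean and SD over 3 libraries. The mitochondrial share is lower in RANKL (2.509% to 2.877%) than in ENR control and higher in RANKL+CSRM617 (8.593% to 11.02%) than in RANKL II.

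The RANKL and RANKL II groups carry the same labelled treatment, yet their mitochondrial shares were 2.735% ± 0.198 and 6.024% ± 0.0115 (SD, n = 3 each), and their nuclear shares 0.523% ± 0.0314 and 0.642% ± 0.00274. The 2 sets sit in tables that the authors normalized separately, and the set and any other difference between them cannot be told apart. No test was made across the tables. Per kilobase of exon, mt-Co1, the catalytic core of complex IV, was the most abundant member in every group, at a mean of 25810, 7858, 18740 and 35550 CPM per kb in the controls, RANKL, RANKL II and CSRM617 groups. Among nuclear members Cox8a, a small subunit of the same complex, had the highest mean in the first 3 groups, and the ATP synthase α subunit Atp5a1 in the CSRM617 group. Cox8a stood at 182, 192, 225 and 170 CPM per kb in that order and Atp5a1 at 172, 167, 204 and 201 CPM per kb.

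RANKL against ENR control asks how organoids put through the M cell protocol differ from those kept in ENR. If the controls did not have CHIR99021 and valproic acid, the effects of those agents and of RANKL cannot be told apart here. All 7 mitochondrial mRNAs that could be tested fell, by a median of 1.72 on the log2 scale. Of the 85 nuclear members tested, 9 rose and 8 fell, with a median log2 fold change of 0.05. The test, edgeR's quasi-likelihood test with Benjamini-Hochberg adjustment, called 56.7% of all 13570 genes tested at an adjusted p under 0.05, 28.7% higher and 28.0% lower, with a median of 0.0. The nuclear members stood under that background, with 10.6% called higher and 9.41% lower. Groups of 3 libraries did not overlap for 7 of 7 mitochondrial and 19 of 85 nuclear members, against 63.3% of all genes. In bulk libraries, fewer cells of a type and less RNA per cell cannot be told apart.

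mt-Nd4, a proton-pumping subunit of complex I, stood at 4367, 3237 and 6372 CPM in ENR control and at 1053, 1205 and 1222 CPM in RANKL. Every control library lay above every RANKL library, and the log2 fold change was -2.01 ± 0.221 (SE, edgeR adjusted p = 7e-05). mt-Cytb, the only mitochondrially encoded subunit of complex III, had 12580, 9324 and 18270 CPM against 2986, 3552 and 3696 CPM (-1.97 ± 0.213, edgeR adjusted p = 2.55e-05). mt-Co1 had 36800, 28690 and 54140 CPM against 11300, 13110 and 12010 CPM (-1.72 ± 0.184, edgeR adjusted p = 2.82e-06). In both, the groups were apart in the same way. mt-Nd1, a complex I subunit next to the quinone site, fell less, with 6812, 5310 and 10210 CPM against 2815, 3173 and 3139 CPM (-1.29 ± 0.201, edgeR adjusted p = 0.000372). The log2 changes of the other 3 complex I mRNAs were -1.84 for mt-Nd5, -1.64 for mt-Nd6 and -1.23 for mt-Nd2. ENR control replicate 3 was the highest and replicate 2 the lowest control library for all 7 mRNAs, which is also their order in ribosomal RNA share. Leaving out any 1 library kept all 7 calls. With offsets for transcript GC content the median was -2.45. These mRNAs have a median GC content of 37.1%, against 50.2% for the nuclear members.

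**Figure D2:**
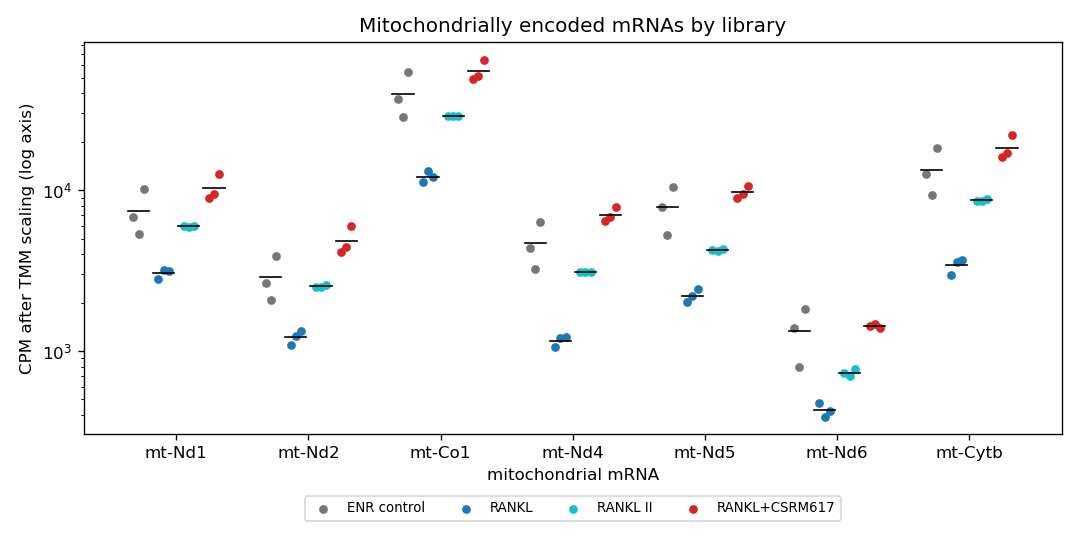
CPM after TMM scaling (log axis) of the 7 counted mitochondrial mRNAs (x axis) in each library; points are libraries coloured by group and black lines are group means. For every mRNA the RANKL libraries lie below the ENR control libraries, and the RANKL+CSRM617 libraries lie above those of RANKL II; mt-Co1 is the highest in all groups.

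Along the mitochondrial DNA the fall was smaller at its start. The log2 changes ran from -1.29 (mt-Nd1) and -1.23 (mt-Nd2), the first genes on the plus strand after the ribosomal RNAs, to -1.72 (mt-Co1) and then -2.01, -1.84 and -1.97 (mt-Nd4, mt-Nd5 and mt-Cytb). This grouping was chosen after the values were seen. The log2 ratio of the distal counts (mt-Nd4, mt-Nd5 and mt-Cytb) to the proximal ones (mt-Nd1 and mt-Nd2) was 1.39, 1.27 and 1.32 in ENR control and 0.63, 0.654 and 0.712 in RANKL. It was 0.913, 0.918 and 0.917 in RANKL II and 1.28, 1.27 and 1.12 in RANKL+CSRM617. Within each comparison the groups did not overlap, and the ratio was higher in the group with the higher mitochondrial share. Between libraries of 1 group it did not always follow the share. RANKL+CSRM617 replicate 3 had the highest share of its group (11.02%) and the lowest ratio (1.12). mt-Nd6, the only mRNA of the minus strand, fell by 1.64 with RANKL and rose by 0.96 with CSRM617, between the extremes of the plus strand in both.

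**Figure D3:**
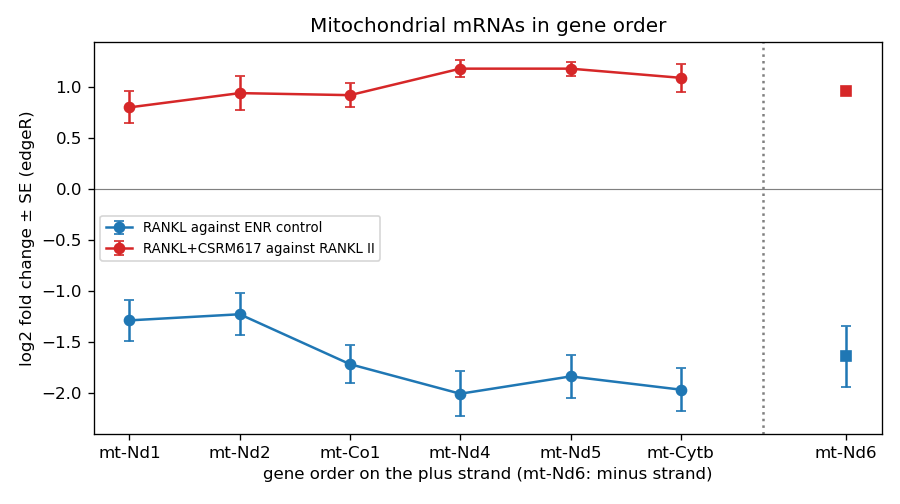
Log2 fold change ± SE from edgeR (y axis) of the 7 counted mitochondrial mRNAs in gene order (x axis), for RANKL against ENR control and RANKL+CSRM617 against RANKL II; mt-Nd6, on the minus strand, stands apart at the right. The changes are smaller at mt-Nd1 and mt-Nd2 than at mt-Nd4 (-2.01 with RANKL, 1.18 with CSRM617).

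The nuclear members that moved with RANKL were few and spread over the complexes. In complex I, 3 of 36 rose and 3 fell. Ndufb11, an accessory subunit of the membrane arm, changed most: 40.1, 48.4 and 37.25 CPM in ENR control against 21.9, 26.2 and 20.2 CPM in RANKL. The groups were apart, at -0.89 ± 0.128 (SE, edgeR adjusted p = 2.45e-05). Its membrane-arm neighbour Ndufb10 fell by 0.45 and the accessory subunit Ndufa8 by 0.29, a call that GC offsets ended (-0.1). Ndufa11 rose from 9.02, 9.99 and 5.94 CPM to 14.5, 14.7 and 10.7 CPM (0.64 ± 0.191, edgeR adjusted p = 0.00928), with no overlap, and the small subunits Ndufa1 (0.57) and Ndufc1 (0.54) rose too. None of the 8 tested Ndufs subunits and none of the 3 Ndufv subunits, which carry most of the electron-transfer centres, passed. Ndufs1 and Ndufv1 had log2 changes of 0.16 and -0.14. Among the 8 assembly factors Ndufaf4 rose (0.51 ± 0.162, edgeR adjusted p = 0.0137; 0.11 and not past the threshold with GC offsets) and Ndufaf6 fell (-0.69 ± 0.192, edgeR adjusted p = 0.00592).

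Complex II showed no call with RANKL. Sdha, the flavoprotein, had 194.7, 229.8 and 181.2 CPM in ENR control and 192.7, 193.5 and 181.7 CPM in RANKL, so the groups overlapped. The log2 changes of Sdha, the iron-sulfur subunit Sdhb, and the membrane anchors Sdhc and Sdhd were -0.1, 0.0, -0.12 and 0.07. In complex III, Uqcr10, a small subunit, was the only 1 of 8 to pass (-0.46 ± 0.127, edgeR adjusted p = 0.00601). GC offsets ended that call at an adjusted p of 0.0646. The core protein Uqcrc1 and the Rieske iron-sulfur protein Uqcrfs1 stood at -0.04 and 0.06.

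In complex IV, Cox6c and Cox5a rose and Cox7a2l fell, of 12 tested. Cox7a2l, which takes part in joining complexes III and IV into supercomplexes, had 77.57, 83.03 and 84.77 CPM in ENR control and 59.93, 60.01 and 54.84 CPM in RANKL. All control libraries were higher (-0.49 ± 0.0856, edgeR adjusted p = 0.000165). Its relative Cox7a2 stood at 0.1 and did not pass. Cox6c gave 0.34 with overlapping groups, and Cox5a gave 0.26, which became -0.01 with GC offsets. The main subunit isoforms Cox4i1, Cox6a1, Cox6b1, Cox7b and Cox8a had log2 changes of 0.02 to 0.19, none past the threshold. With GC offsets Cox6a1 (0.44, adjusted p = 0.00177), Cox8a (0.36, adjusted p = 0.00107) and Cox6b1 (0.28, adjusted p = 0.022) passed, and complex IV had 4 higher and 2 lower. Several other isoforms of complex IV subunits were nearly uncounted. Cox8b, Cox6b2, Cox7b2 and Cox8c had 0 counts in all 12 libraries, Cox4i2 and Cox6a2 had 1 count each in total, and Ndufa4l2 had 1 count in each of the first 3 groups. Cox7a1 stood at 0.267 to 1.6 CPM in ENR control and 0.337 to 1.13 CPM in RANKL and was too low to test there.

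In complex V, 3 of 17 rose and 2 fell. Atp5md, a small membrane subunit, went from 22.9, 30.1 and 23.3 CPM to 39.6, 38.3 and 33.2 CPM. The groups were apart (0.53 ± 0.125, edgeR adjusted p = 0.0021). Subunit g, Atp5l, rose by 0.57 and subunit b, Atp5f1, by 0.3. GC offsets ended the call for Atp5l (0.19, adjusted p = 0.236) and turned Atp5f1 to -0.26 (adjusted p = 0.0395). The 3 genes for subunit c, which yield the same mature protein, split: Atp5g1 fell by 0.4 and Atp5g2 by 0.49, while Atp5g3 stood at 0.13 and did not pass. The call for Atp5g2 ended with GC offsets (-0.07). The catalytic subunit Atp5b had 536.6, 623.6 and 520.5 CPM against 592.0, 579.2 and 512.3 CPM, with a log2 change of 0.0.

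The count of nuclear members that rose with RANKL moved with single libraries. It was 3 without ENR control replicate 1, 18 without replicate 2 and 4 without replicate 3, and it was 5, 3 and 12 without RANKL replicates 1, 2 and 3. DESeq2 called 5 higher and 5 lower, GC offsets 14 higher and 9 lower, and length offsets 13 higher and 7 lower. In all of these most nuclear members did not pass, while the mitochondrial mRNAs fell. Over the 83 nuclear members with a GC value, the log2 change and GC content had a Spearman correlation of -0.362 before the GC offsets and 0.368 after them. The offsets thus left a relation of about the same size and opposite sign, which limits what the calls they ended or added with RANKL show.

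RANKL+CSRM617 against RANKL II asks what the ONECUT2 inhibitor changes in RANKL-treated organoids. Here the 2 genomes moved apart: all 7 tested mitochondrial mRNAs rose, by a median of 0.96 on the log2 scale, while 50 of 86 nuclear members fell and 14 rose, with a median of -0.24. The background was high, since 71.4% of 14167 genes were called, 35.2% higher and 36.2% lower, with a median of -0.02. The share of nuclear members called in either direction, 74.4%, was near that background. Their split was not: 58.1% were lower and 16.3% higher. Groups did not overlap for 65 of 86 nuclear members, 75.6% against 73.1% of all genes. With GC offsets 52 nuclear members were lower and 6 higher, with a median of -0.28. With length offsets 45 were lower and 15 higher, with a median of -0.18.

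mt-Nd4 stood at 3087, 3108 and 3095 CPM in RANKL II and 6425, 6846 and 7818 CPM in RANKL+CSRM617. Every CSRM617 library was higher (1.18 ± 0.0829, SE, edgeR adjusted p = 0.000189). mt-Cytb rose from 8565, 8608 and 8748 CPM to 16080, 17080 and 22050 CPM (1.09 ± 0.14, edgeR adjusted p = 0.00209). mt-Co1 rose from 28990, 29000 and 28860 CPM to 49130, 51400 and 64230 CPM (0.92 ± 0.119, edgeR adjusted p = 0.00212). RANKL+CSRM617 replicate 3 was the highest library for 6 of the 7, the exception being mt-Nd6 (1424, 1466 and 1396 CPM). mt-Nd1 changed least, at 0.8 ± 0.158 (edgeR adjusted p = 0.01), and mt-Nd5, mt-Nd6 and mt-Nd2 rose by 1.18, 0.96 and 0.94. Leaving out any 1 library kept all 7 calls, and the median with GC offsets was 2.02.

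In complex I, 20 of 36 nuclear members fell and 8 rose. Ndufb4, an accessory subunit of the membrane arm, had the largest change of all nuclear members: 7.46, 7.62 and 8.73 CPM against 1.51, 3.01 and 2.26 CPM. The groups were far apart (-1.78 ± 0.183, edgeR adjusted p = 9.63e-12), though 37.53% of its 42-base stretches occur in other transcripts. Ndufc2, also of the membrane arm, fell from 36.9, 36.1 and 31.3 CPM to 15.04, 16.37 and 13.55 CPM (-1.2 ± 0.0845, edgeR adjusted p = 7.87e-17). The rises included Ndufv3 and Ndufb7, both accessory. Ndufv3 went from 38.0, 35.3 and 37.9 CPM to 64.0, 68.7 and 60.7 CPM, all CSRM617 libraries being higher (0.8 ± 0.0596, edgeR adjusted p = 6.39e-16), and Ndufb7 rose by 0.73. The NADH-oxidising module split, with the flavoprotein Ndufv1 rising by 0.42 and its partner Ndufv2 falling by 0.67. Ndufs1, the largest core iron-sulfur subunit, fell by 0.2. GC offsets ended the calls of Ndufv1 (0.03) and Ndufs1 (0.04), but not those of Ndufb4 (-1.96), Ndufc2 (-1.21), Ndufv3 (0.65) or Ndufb7 (0.48). Of the 8 assembly factors 3 fell, Ndufaf4 by 0.81, Ndufaf7 by 0.49 and Ndufaf1 by 0.32, and none rose. With GC offsets Ndufaf4 stood at -0.09, Ndufaf7 at -0.21 and Ndufaf1 at -0.18, none past the threshold.

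The 4 complex II genes went different ways with CSRM617. Sdhd fell from 82.4, 90.3 and 80.5 CPM to 47.2, 47.2 and 54.6 CPM, with no overlap (-0.76 ± 0.0566, edgeR adjusted p = 1.27e-15). The other membrane anchor, Sdhc, fell from 70.6, 71.6 and 68.0 CPM to 51.8, 50.25 and 53.6 CPM (-0.43 ± 0.0526, edgeR adjusted p = 1.04e-09). Sdhb rose from 60.5, 56.2 and 58.9 CPM to 73.2, 75.2 and 72.9 CPM (0.33 ± 0.0506, edgeR adjusted p = 1.57e-07), a call that GC offsets ended at 0.09. Both anchors thus fell, whereas Sdha stood at 251.0, 254.5 and 257.0 against 244.5, 251.4 and 241.8 CPM, overlapping, and did not pass (-0.05 ± 0.0312, edgeR adjusted p = 0.167).

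In complex III all 8 members were called, 6 lower and 2 higher, where 71.4% of all genes tested were called. The smallest change was that of Uqcr11 (-0.15 ± 0.0613, edgeR adjusted p = 0.0315). Uqcr11 did not pass with DESeq2 (adjusted p = 0.209) or with length offsets (-0.05, edgeR adjusted p = 0.463). Uqcrb, a small subunit near the quinone-binding site, fell from 34.9, 33.1 and 34.5 CPM to 11.8, 13.0 and 14.2 CPM. No libraries overlapped (-1.38 ± 0.0826, edgeR adjusted p = 3.41e-19). GC offsets kept the call and moved the change to -0.75. The core proteins parted, Uqcrc2 falling by 0.63 and Uqcrc1 rising by 0.28, although GC offsets ended the latter call at 0.06. Uqcrfs1 fell by 0.49 and the small subunit Uqcrq rose by 0.45.

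Complex IV had 10 of 13 lower and 1 higher. Ndufa4, first assigned to complex I and now placed in complex IV, fell from 38.4, 43.0 and 46.4 CPM to 18.6, 19.1 and 19.3 CPM (-1.17 ± 0.0746, edgeR adjusted p = 3.09e-18), and -0.53 with GC offsets. Cox6c fell from 89.8, 90.7 and 91.6 CPM to 40.25, 40.0 and 46.1 CPM (-1.1 ± 0.0543, edgeR adjusted p = 3.87e-22). In both, every CSRM617 library was lower than every RANKL II library. Cox7c (-0.72), Cox7a2 (-0.67), Cox7b (-0.45), Cox8a (-0.4), Cox5a (-0.37), Cox6b1 (-0.36), Cox7a2l (-0.2) and Cox4i1 (-0.15) also fell. Cox6a1 was the exception, at 51.1, 49.6 and 48.9 CPM against 73.0, 70.3 and 62.1 CPM (0.45 ± 0.0572, edgeR adjusted p = 2.19e-09). GC offsets turned it to -0.12 and Cox5a to 0.16, both past the threshold in the other direction, and ended the calls of Cox7b (0.05) and Cox7c (0.11). Length offsets ended that of Cox4i1 (-0.05). Over the 84 nuclear members with a GC value, the log2 change and GC content had a Spearman correlation of 0.531, and of -0.229 after the offsets. Genes are not independent replicates and share the same libraries.

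In complex V, 9 of 17 fell and 2 rose. Atp5md fell from 48.7, 52.5 and 55.9 CPM to 20.1, 16.6 and 21.8 CPM (-1.43 ± 0.0763, edgeR adjusted p = 8.96e-20). Atp5mpl, another small membrane subunit, fell from 42.1, 39.9 and 40.9 CPM to 20.7, 17.35 and 21.9 CPM (-1.04 ± 0.0748, edgeR adjusted p = 1.95e-16). All CSRM617 libraries were lower for both. The γ subunit Atp5c1, the rotor shaft, fell by 0.76, and subunits g (Atp5l, -0.87), F6 (Atp5j, -0.72) and b (Atp5f1, -0.66) fell as well. GC offsets ended the call of Atp5l (-0.18) and turned Atp5f1 to 0.31, past the threshold. The α and β subunits that form the catalytic head, Atp5a1 and Atp5b, did not pass. Atp5b had 689.0, 682.0 and 667.8 CPM against 683.2, 680.5 and 657.2 CPM, overlapping, at -0.01 ± 0.0261 (edgeR adjusted p = 0.672). With GC offsets the pair stood at -0.31 and -0.18, both past the threshold. The rises of subunit e, Atp5k (0.23), and of the δ subunit Atp5d (0.12) became -0.12 and -0.35 with GC offsets, the latter past the threshold. Of the subunit c genes Atp5g3 fell by 0.16, and Atp5g1 (0.01) and Atp5g2 (-0.09) did not pass, although GC offsets moved Atp5g2 to -0.68, past the threshold.

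**Figure D4:**
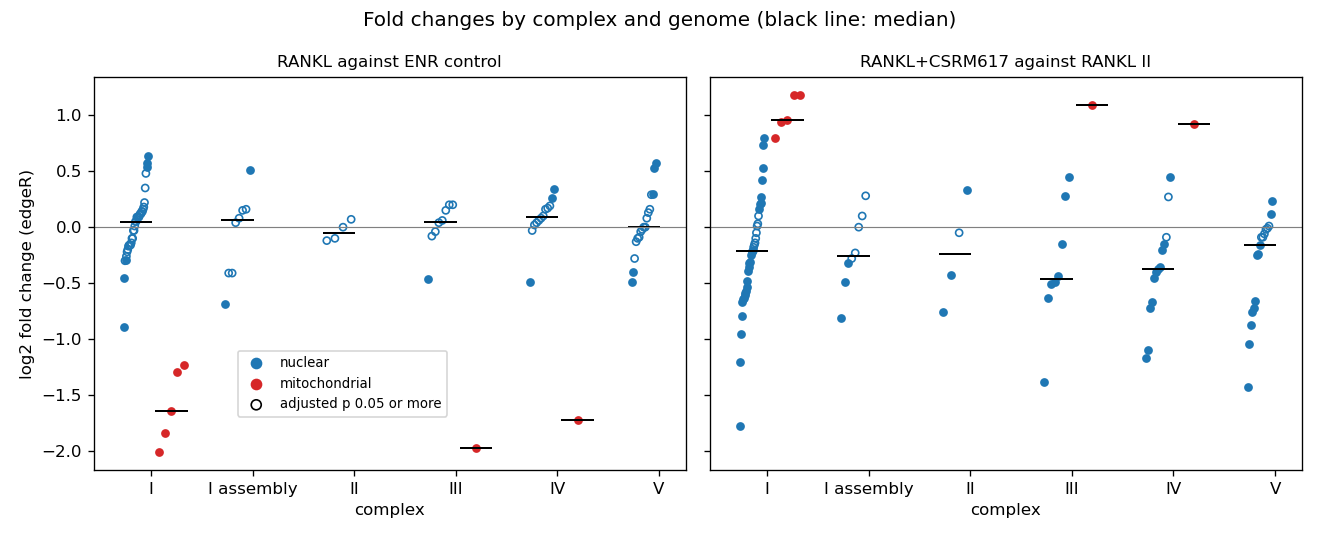
Log2 fold change from edgeR (y axis) of each tested member by complex (x axis) in RANKL against ENR control (left) and RANKL+CSRM617 against RANKL II (right), nuclear members in blue and mitochondrial in red; filled points passed an adjusted p of 0.05, open points did not, and black lines are medians. The 7 mitochondrial mRNAs lie below all nuclear members at left and above all of them at right except that mt-Nd1 (0.8) and Ndufv3 (0.8) are level.

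The comparisons share no library, so their changes can be set side by side. All 7 mitochondrial mRNAs fell with RANKL and rose with CSRM617. Of the 9 nuclear members that rose with RANKL, 8 fell with CSRM617: Cox5a, Atp5f1, Cox6c, Ndufa1, Ndufaf4, Ndufc1, Atp5l and Atp5md. For reference, 58.1% of all nuclear members tested and 36.2% of all genes tested fell with CSRM617. The share of all genes that rose and then fell was not counted, so a reversal particular to these members is not shown. Of the 8 that fell with RANKL, 1 rose with CSRM617 (Ndufa8), 2 fell again (Cox7a2l and Uqcr10) and 5 did not pass. Another 13 rose and 40 fell with CSRM617 that had not passed with RANKL. With GC offsets 11 members were higher with RANKL and lower with CSRM617, 1 lower then higher, 6 lower in both and 1 higher in both. Across the 85 nuclear members tested in both, the Pearson correlation of the log2 changes was -0.333 (-0.264 with GC offsets), against -0.225 over 13263 genes. It is a description across genes measured in the same libraries. Of the 8 that rose and then fell, Cox6c, Ndufa1 and Ndufc1 kept both calls with GC offsets. With DESeq2, however, Ndufa1 passed in neither comparison (adjusted p = 0.105 with RANKL and 0.0886 with CSRM617). Its RANKL and ENR control libraries also overlapped. Atp5md kept both calls with GC offsets too, but it had no GC value and so was not adjusted, which makes this no check for it. Cox5a, Atp5l and Ndufaf4 lost at least 1, and Atp5f1 turned in both, lower with RANKL and higher with CSRM617.

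**Figure D5:**
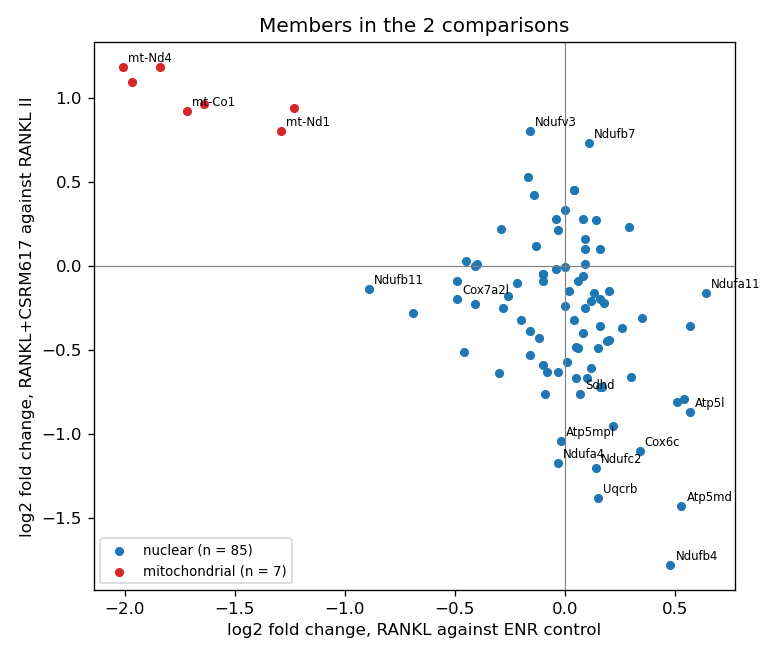
Log2 fold change with RANKL against ENR control (x axis) and with RANKL+CSRM617 against RANKL II (y axis) for the 85 nuclear (blue) and 7 mitochondrial (red) members tested in both, with some members labelled. The mitochondrial mRNAs form the upper left group, and the nuclear members spread mainly along the y axis, from Ndufb4 (-1.78) to Ndufv3 (0.8).

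Cell type markers moved with both comparisons, and their part in the members' changes was not tested. The shares called over all genes were 28.7% higher and 28.0% lower with RANKL, and 35.2% and 36.2% with CSRM617. With RANKL, 8 of 8 M cell markers rose, their summed level going from 58.0 to 63.7 CPM in ENR control to 945.7 to 1034 CPM in RANKL. Of the crypt stem and dividing cell markers 1 of 10 rose and 6 fell (3413 to 3744 CPM against 1550 to 2104 CPM). Of 12 enterocyte markers 5 rose and 7 fell (3895 to 4160 CPM against 4262 to 5329 CPM), and of 7 Paneth cell markers 1 rose and 6 fell (532.4 to 910.6 CPM against 375.9 to 391.3 CPM). With CSRM617, 12 of 12 enterocyte markers rose (5496 to 5566 CPM against 11890 to 12110 CPM), as did 6 of 7 Paneth cell markers (560.5 to 575.2 CPM against 880.1 to 903.6 CPM), with 1 lower. M cell markers split into 4 higher and 4 lower (974.4 to 991.7 CPM against 977.5 to 1013 CPM), and of the stem and dividing cell markers 6 rose and 3 fell (502.3 to 517.6 CPM against 766.0 to 780.4 CPM). Immune markers summed to 0.229 to 3.2 CPM and stromal markers to 1.24 to 3.73 CPM over all libraries.

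Other genes of mitochondrial respiration were counted from lists chosen by role. Over all genes tested, 28.7% were called higher and 28.0% lower with RANKL, and 35.2% and 36.2% with CSRM617. Percentages in brackets are the shares of each list called higher and lower. Of 21 electron carriers and feeders, 4 rose and 9 fell with RANKL (19.0% and 42.9%), and 5 rose and 7 fell with CSRM617 (23.8% and 33.3%). Coq8a and Pdss1, both of coenzyme Q synthesis, fell by 2.35 and 1.86 with RANKL. Assembly factors outside the symbol families gave 5 higher and 8 lower of 34 with RANKL (14.7% and 23.5%). Among them Sdhaf1, an assembly factor of complex II, rose by 1.77. With CSRM617 they gave 6 higher and 20 lower of 35 (17.1% and 57.1%). Tmem70, an assembly factor of the ATP synthase and named for its small p-value, stood at -1.2. The largest fall on that list was -1.56. The tricarboxylic acid cycle, which feeds complexes I and II, had 6 of 16 higher and 4 lower with RANKL (37.5% and 25.0%). With CSRM617 it had 5 higher and 9 lower (31.2% and 56.2%). Citrate synthase Cs rose by 0.69 with RANKL, and the malate dehydrogenase Mdh2 rose by 1.16 with CSRM617.

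Among 35 genes that transcribe, copy or process mitochondrial DNA and RNA, 4 rose and 14 fell with RANKL (11.4% and 40.0%). All genes tested gave 28.7% and 28.0%. With CSRM617, 9 rose and 23 fell (25.7% and 65.7%, against 35.2% and 36.2% of all genes). Polrmt, the mitochondrial RNA polymerase, went the same way as the mitochondrial mRNAs in both: it fell from 52.2, 40.1 and 50.3 CPM to 26.4, 26.3 and 27.8 CPM with RANKL (-0.81 ± 0.114, edgeR adjusted p = 1.93e-05) and rose by 1.21 with CSRM617. The list as a whole had medians of -0.05 and -0.4. With GC offsets it had 2 higher and 15 lower with RANKL (median -0.22), and 8 higher and 13 lower with CSRM617 (median -0.15). Of 9 nuclear regulators tested, 1 rose and 5 fell with RANKL (11.1% and 55.6%), and 6 rose and 2 fell with CSRM617 (66.7% and 22.2%). Esrra and Ppargc1b, a nuclear receptor and a coactivator of mitochondrial genes, rose by 0.83 and 1.1 with CSRM617.

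Promoters of the nuclear members share short motifs, and 4 are shown because their genes were called in 1 comparison or both. Windows from 250 bases before to 50 after the start were taken from RefSeq (GRCm38.p6), with 80 promoters for 75 member genes and 32851 for all genes, and searched on both strands for cores of 7 letters, shortened after longer ones had been searched. The core of the nuclear respiratory factor NRF1, GCATGCG, was in 16.2% of member promoters and 3.58% of all. The ETS core bound by GABP, CCGGAAG, was in 23.8% and 8.86%, and the YY1 core ATGGCGG in 16.2% and 4.05%. The windows end at the base before the start and have the motifs in capitals. The NRF1 core and its reverse complement overlap by 6 bases, so that both strands match at each NRF1 site shown. Cox6a1 (chr5:115348959-115349139, minus strand) has NRF1 and ETS cores and Atp5k (chr5:108434400-108434479, minus strand) an NRF1 core. Both rose with CSRM617 before GC offsets. Ndufaf4 (chr4:24897951-24898082, plus strand) has an NRF1 core and Sdhd (chr9:50603850-50603929, minus strand) an ETS core. Both fell with CSRM617, Sdhd also with GC offsets (-0.8) and Ndufaf4 not (-0.09, adjusted p = 0.465).
Cox6a1: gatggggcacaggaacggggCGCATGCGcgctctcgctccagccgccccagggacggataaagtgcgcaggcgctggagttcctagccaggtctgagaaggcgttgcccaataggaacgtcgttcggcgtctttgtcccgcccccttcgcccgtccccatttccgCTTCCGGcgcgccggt
Atp5k: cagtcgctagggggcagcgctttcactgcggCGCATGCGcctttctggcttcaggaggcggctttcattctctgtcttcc
Ndufaf4: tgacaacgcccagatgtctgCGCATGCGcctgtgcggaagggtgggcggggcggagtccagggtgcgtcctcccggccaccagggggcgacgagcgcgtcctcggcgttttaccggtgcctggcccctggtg
Sdhd: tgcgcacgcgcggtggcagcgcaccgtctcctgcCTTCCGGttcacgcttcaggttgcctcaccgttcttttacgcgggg
Of the 13 genes with the NRF1 core, 5 rose and 5 fell with CSRM617, and 3 rose and 2 fell with RANKL. Of the 19 genes with the ETS core, 5 rose and 12 fell with CSRM617, and 2 rose with RANKL. Of the 12 genes with the YY1 core, 8 fell with CSRM617 and 1 rose with RANKL. For reference, 16.3% of all nuclear members tested rose and 58.1% fell with CSRM617, and 10.6% rose and 9.41% fell with RANKL. For all genes the shares were 35.2% and 36.2% with CSRM617 and 28.7% and 28.0% with RANKL. No link between a motif and a direction was tested. A match of letters is a description and says nothing of binding.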

How the data were processed

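Per the labels' protocols, libraries were made from 1 µg of total RNA per replicate after ribosomal RNA depletion and sequenced as paired reads of 42 bp. For each comparison the authors deposited a table of raw counts per gene, made with STAR, HTSeq 0.13.5 and DESeq2 1.34.0 on mm10 (GRCm38) per the submitters' processing notes. No STAR version, annotation or strand setting was found in the labels, so overlapping genes on opposite strands may not be separated. The authors also deposited 2 normalized tables on a log2 scale. No column of samples went unused (0).

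Each comparison was tested with edgeR 4.0.16 (quasi-likelihood, robust, TMM, filterByExpr) in R 4.3.3 on the 6 libraries of its table, with Benjamini-Hochberg adjustment over all genes and adjusted p under 0.05. SE is the unshrunken log2 change over the square root of F. Levels are CPM after TMM scaling. Alternatives were DESeq2 1.42.0, RLE factors, factors without mitochondrial transcripts and ribosomal RNA loci, no filter, at least 50 counts in 3 libraries, limma 3.58.1 on the deposited log2 tables, a replicate block, GC and length offsets (loess span 0.3), and leaving out each library. A planned pseudocount was dropped because the deposited values were already logged. On simulated counts with RANKL and ENR control depths (13403 genes), 83 of 100 changes of log2 1 and 99 of 100 of log2 2 were called. With RANKL II and RANKL+CSRM617 depths (13991 genes), 83 and 96 were called. Unchanged genes gave 15 false calls in the first and 7 in the second. A single fixed dispersion was used for all genes and libraries, not the spread of these data, so these rates may not hold for them.

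Annotation came from GENCODE M21, which matched 53647 of 55335 entries. The symbol Atp5o occurs in 2 entries, 1 of them without counts. Members and lists were chosen with earlier results of these data known. Named in full were every mitochondrial mRNA, a fixed set of core subunits, the isoform pairs of complexes IV and V, the 2 highest and 2 lowest nuclear members of complexes I, III, IV, V and the assembly factors, and the 2 smallest p-values per list. Other genes were named after their values were seen. A few named items are not reported here.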

Additional observations from a re-analysis of the deposited data

How the results depend on the processing

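The 7 mitochondrial calls held in every alternative in both comparisons, with log2 changes of -0.95 (mt-Nd2) to -2.72 (mt-Nd4) with RANKL and 0.63 (mt-Nd1) to 2.29 (mt-Nd4) with CSRM617. The highest adjusted p was 0.0426 (mt-Nd6) and 0.0407 (mt-Nd1). Nuclear members lower with RANKL numbered 5 with DESeq2. Nuclear members higher with RANKL, 9 in the main test, numbered 5 with DESeq2, 14 with GC offsets, 19 with GC offsets and the replicate block, and 3 to 18 when single libraries were left out. Nuclear members higher with CSRM617, 14 in the main test, numbered 6 with GC offsets, with or without the block. GC offsets turned the sign of Cox5a with RANKL (-0.01) and, with CSRM617, of Ndufs1 (0.04), Cox5a (0.16), Cox6a1 (-0.12), Cox7b (0.05, or 0.04 with the block), Atp5d (-0.35) and Atp5k (-0.12). With the block added, the other values were the same. The cause was not tested. DESeq2, no filter and limma also called mt-Nd3 lower with RANKL, from 5, 7 and 11 counts against 1, 2 and 1. Moving the Ndufa4 family to complex I left its counts within 1.5 times.

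The replicate numbers did not pair the libraries. Same-numbered deviations correlated at 0.004, 0.057 and -0.007 in the RANKL comparison and -0.011, 0.013 and 0.005 in the CSRM617 one. With the replicate block 9 nuclear members were higher and 8 lower with RANKL, and 14 higher and 50 lower with CSRM617. Over the named genes, 655 of the alternative values with RANKL and 713 with CSRM617 kept direction and side of the threshold, 31 and 17 lost the call, 29 and 7 gained it, and 2 and 14 changed sign.

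Members with few counts, such as Ndufb4, Ndufs5, Ndufaf3 and Ndufaf8, are the least precisely measured. Counts depend on how reads shared with nuclear copies or pseudogenes were placed, which no label states.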

Other observations

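Other mitochondrial RNA was counted too. The 2 mitochondrial ribosomal RNAs, a target of ribosomal RNA depletion, had 842, 461 and 296 counts in ENR control, 600, 741 and 863 in RANKL, 3231, 2157 and 8316 in RANKL II and 1809, 2511 and 3120 in RANKL+CSRM617. Neither mt-Rnr1 nor mt-Rnr2 passed in either comparison by edgeR (DESeq2 gave mt-Rnr1 an adjusted p of 0.0169 with RANKL), with log2 changes of -2.16 and 0.32 with RANKL and -0.5 and -1.05 with CSRM617. RANKL II replicate 3 had the most of any library, in a group whose mitochondrial mRNA shares were nearly equal. Mitochondrial tRNAs had 314, 326 and 400 counts in ENR control and 141, 139 and 128 in RANKL, then 113, 118 and 147 in RANKL II and 210, 263 and 282 in RANKL+CSRM617. These counts are not scaled to library size. Within each comparison they were lower in the group with the lower mRNA share. RANKL and RANKL II overlapped in tRNA counts, but every RANKL II library had more total counts than any RANKL library. That overlap therefore cannot be set against the mRNA shares.

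Listed nuclear copies of mitochondrial genes had 85, 134 and 112 counts in ENR control, 52, 54 and 50 in RANKL, 473, 320 and 540 in RANKL II and 715, 815 and 1148 in RANKL+CSRM617. Of these Gm13340, which shares 32.91% of the 42-base stretches of mt-Co1, fell by 1.81 with RANKL and rose by 1.28 with CSRM617, the same directions as mt-Co1. Malat1 and Neat1, RNAs kept in the nucleus, took 0.723% to 0.811% of ENR control counts against 2.99% to 3.39% of RANKL counts. Their share was 4.04% to 4.17% for RANKL II, against 3.03% to 3.2% with CSRM617. These are shares of all counts, the ribosomal RNA loci included. In the edgeR fits, after TMM scaling, both rose with RANKL (1.46 and 2.68), but with CSRM617 1 rose (0.21) and 1 fell (-0.17).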
